A study of Homo sapiens with 8 samples.

Results

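The genes described here are transcription factors and structural genes of epithelial-mesenchymal transition (EMT), a list of 8 symbols made up of SNAI1, SNAI2, TWIST1, TWIST2, ZEB1, ZEB2, VIM and CDH2. Members were the transcript clusters, which are the summarised probe groups of the array, whose annotated symbol was on that list. Of the 8 symbols, 7 had at least 1 named transcript cluster, out of 14884 symbols named on the array, and CDH2, which encodes N-cadherin, had none and is not analysed here. VIM had 3 clusters and each other gene had 1, and VIM is represented by the cluster with the highest mean over the 8 arrays unless another is named. The list was chosen by the differences of SNAI2 and VIM between TET1 shRNA arrays and shControl, seen in earlier results of these arrays, so values of that comparison are a description without a test. The fits of the plasmid arrays share the same fitted spread but were not used in that choice.

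The cells on all arrays were HEK293T, a transformed line from human embryonic kidney in which the SV40 large T antigen is expressed. Of the 8 arrays, 3 held cells with a lentiviral shRNA, with 1 array each for the clone shTET1#1, the clone shTET1#2 and the control clone shControl. The other 5 held cells given a plasmid and purified by fluorescence sorting after 3 days, with 1 array each for TET1-FL, its catalytic mutant mTET1-FL, TET1-CD, its catalytic mutant mTET1-CD and the empty vector. FL and CD name the constructs as the labels do. TET1 belongs to an enzyme family that converts methylated cytosine to oxidised forms. Each shRNA array is 1 clone, so what is particular to a clone and what the shRNA does cannot be told apart, and the shRNA and plasmid arrays also differ in transfection and sorting. No label names separate cultures, so the fitted errors below measure the spread between these arrays. For every gene and comparison, also between plasmids, they draw on the difference between the TET1 shRNA clones. Their other source is how far the wild-type to mutant difference changed between FL and CD.

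EMT is a programme in which epithelial cells loosen their junctions and take on a mesenchymal shape, as neural crest and mesoderm cells do in the embryo. The SNAI proteins are zinc finger repressors that bind E-box sequences and shut off E-cadherin and other junction genes. ZEB1 and ZEB2 are zinc finger homeodomain repressors of the same promoters, and TWIST1 and TWIST2 are basic helix-loop-helix factors that pair with E proteins. Vimentin, the product of VIM, is the main intermediate filament of mesenchymal cells and of many cultured lines.

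The median signal of an array was 5.47 to 5.55 (log2), and pairs of arrays correlated with r between 0.932 and 0.988 over the 28946 transcript clusters kept, those above the array median on at least 2 arrays. Of the 7 members measured, 5 were kept. TWIST1 lay above the array median on 0 arrays and TWIST2 on 1, so neither entered the fits. TET1 itself, the targeted gene, stood at 8.62 in clone shTET1#1 and 9.14 in the array labelled shTET1#2, against 9.29 in shControl, in its stronger cluster 16705381. In its second cluster, 16715048, the values were 5.27 and 6.20, against 5.71 in shControl. Signal in the second clone was thus barely lower in 1 cluster and higher in the other, and that array is called by its label throughout. With the plasmids, cluster 16705381 stood at 12.22 (TET1-FL), 12.47 (mTET1-FL), 10.42 (TET1-CD) and 11.05 (mTET1-CD), against 9.51 with the vector. Cluster 16715048 stood at 11.8, 11.91, 12.1 and 12.03 in the same order, against 5.86 with the vector. Of the markers of other cell types, the fibroblast genes DCN and LUM lay above the median on 0 arrays and THY1 on 5. The endothelial genes PECAM1, VWF and KDR did so on 0 and CLDN5 on 8, and the blood genes CD14 and LYZ on 0. Of the neuronal genes, SYP and GAP43 did so on 8 arrays, STMN2 on 6 and CHGA on 2, while the kidney progenitor genes SIX2, WT1, PAX2, LHX1 and EMX2 lay above it on all 8 and PAX8 on 0.

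The microRNAs of the miR-200 family are known to repress ZEB1 and ZEB2, and ZEB proteins repress their genes in turn. Their mature sequences are shown because they divide by seed, the part that pairs with a target, into a group of 3 and a group of 2. Sequences are those of RefSeq on GRCh38.p14, with bases 2 to 8, the seed, in capitals. MIR200A, MIR200B and MIR429 lie on chromosome 1, and MIR200C and MIR141 on chromosome 12.
hsa-miR-200b-3p: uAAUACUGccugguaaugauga
hsa-miR-200c-3p: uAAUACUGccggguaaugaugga
hsa-miR-429: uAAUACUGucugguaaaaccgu
hsa-miR-200a-3p: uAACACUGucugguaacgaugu
hsa-miR-141-3p: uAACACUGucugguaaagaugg

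The array reads the transcripts of these genes and not the mature forms. MIR200B ranged from 4.97 to 5.36 over the 8 arrays, MIR200A from 3.56 to 4.68, MIR429 from 3.95 to 4.18, MIR141 from 3.65 to 3.97 and MIR200C from 3.04 to 3.75. All 5 lay below the array median on all 8 arrays, so no order of their values is read.

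SNAI2, also called Slug, was high on 7 arrays and low on 1. It stood at 10.38 in clone shTET1#1 and 9.15 in the array labelled shTET1#2, against 5.82 in shControl. In the plasmid arrays it stood at 9.83 with TET1-FL, 9.85 with mTET1-FL, 9.84 with TET1-CD and 9.93 with mTET1-CD, against 10.03 with the empty vector. The low array was thus the control clone, whose value lay 0.35 above that array's median, and no other array lay below 9.15. SNAI2 signal was 23.7-fold higher in clone shTET1#1 and 10.1-fold higher in the array labelled shTET1#2 than in shControl, and it was 18.6-fold higher in the empty vector array, which held cells with no shRNA, than in shControl. Against the empty vector, the clones differed by 0.35 and -0.88 on the log2 scale. The comparison with shControl placed 1.09% of all kept clusters at least 2-fold higher in shTET1#1, 1.12% in the array labelled shTET1#2 and 2.09% in the vector array, and 0.432% in both clones at once.

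**Figure D1:**
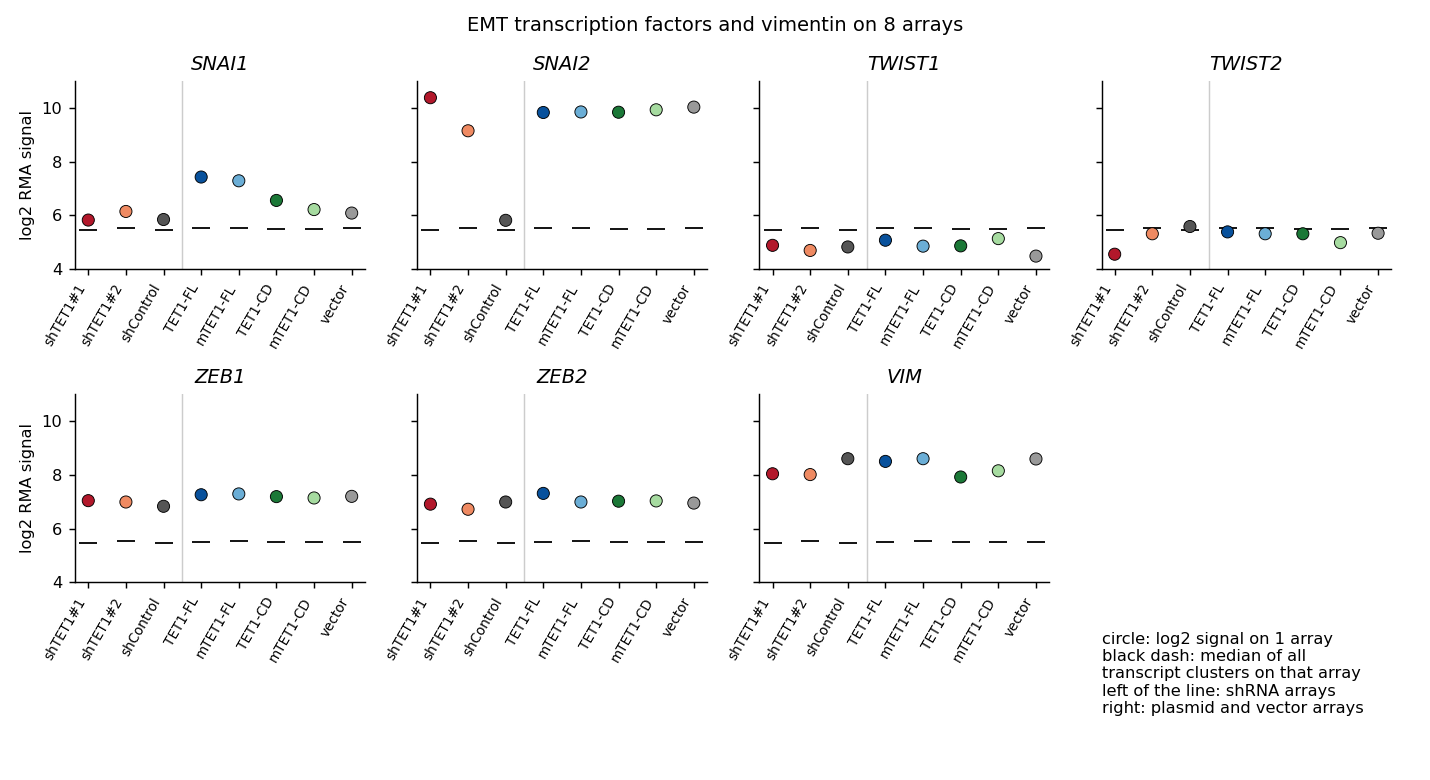
Log2 signal of the 7 measured genes (vertical axis, log2) on each of the 8 arrays (horizontal axis); circles are single arrays and black dashes the median of all transcript clusters on that array. SNAI2 stands at 5.82 in shControl and at 9.15 or more elsewhere, SNAI1 is highest on the 2 FL arrays, and TWIST1 lies below every array median.

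How often 1 array departs from the rest in this way was counted over all kept clusters. In SNAI2 the gap between shControl and the next array was 3.33, or 10.1-fold, while the other 7 arrays spanned 1.23. In 303 clusters (1.05%) shControl lay below the other 7 arrays by more than their whole range, and in 40 of these the gap was at least 2-fold. Without the 2-fold condition the array labelled shTET1#2 (415 clusters) and the vector (351) lay below the others more often than shControl did. The counts with the 2-fold condition were 20 for the array labelled shTET1#2, 16 for the vector, 7 for shTET1#1 and between 1 and 6 for the 4 TET1 plasmid arrays. Of the 28946 kept clusters, 0 had a larger gap below the other 7 arrays in shControl than SNAI2. SNAI2 was listed here partly because of these values, so its place is a description of the arrays.

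**Figure D2:**
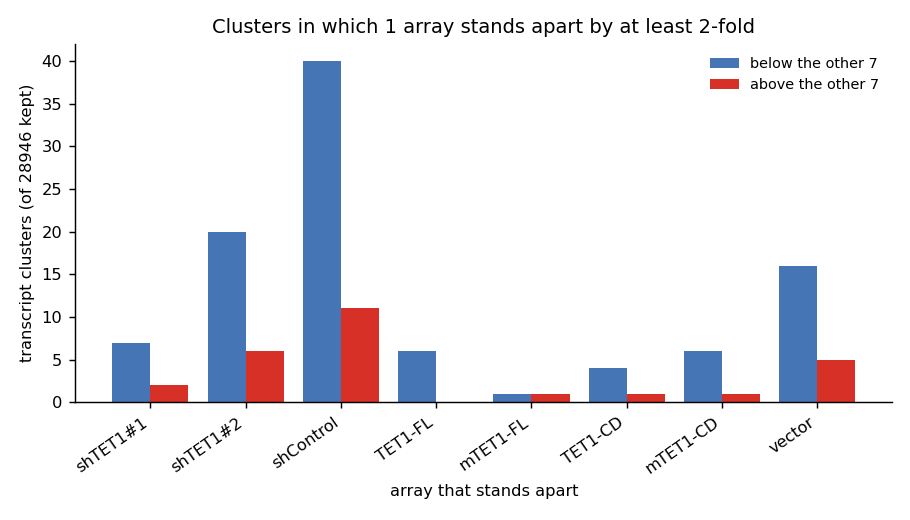
Number of kept transcript clusters (vertical axis) in which 1 array (horizontal axis) lies below (blue) or above (red) the other 7 by more than their whole range and by at least 2-fold. shControl has 40 such clusters below the other arrays, SNAI2 among them, and 11 above.

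The genes whose pattern over the 8 arrays was most like that of SNAI2, among 1452 kept named clusters of other genes with a range of at least 1, were the zinc finger genes ZNF527 (Pearson r = 0.987), ZNF470 (0.972) and ZNF681 (0.965), SCML1 (0.965) and MAP7D2 (0.962). ZNF527 stood at 6.58 in clone shTET1#1 and 5.86 in the array labelled shTET1#2, against 3.89 in shControl, and MAP7D2 at 9.30 and 8.48, against 5.44. All 5 were lowest in the control clone, where all but SCML1 lay below the array median. With that array left out, r over the remaining arrays was 0.80 for ZNF527 and between 0.50 and 0.71 for the other 4. In all, 14 clusters reached an r of 0.9 over the 8 arrays.

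The other 7 arrays spanned 1.23, which is the difference between the 2 clones (2.35-fold higher in clone shTET1#1 than in the array labelled shTET1#2). The moderated SD was 0.41, in which limma pulls a cluster's residual spread towards that of all kept clusters. It includes that difference between clones. This SD is the spread of single arrays, and a step between 2 arrays varies more, so a step just above it does not separate arrays. The step from the array labelled shTET1#2 to TET1-FL, 0.68, was larger than this SD, and the steps between neighbours from TET1-FL up to shTET1#1 were smaller, with the largest at 0.35. Between plasmids, wild-type minus mutant differed by -0.05 ± 0.41 (SE, limma adjusted p = 1), the 4 plasmids minus vector by -0.17 ± 0.46 (limma adjusted p = 0.919) and FL minus CD by -0.05 ± 0.41 (limma adjusted p = 0.981). Here the sides held 2 against 2 arrays, 4 against 1 and 2 against 2.

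SNAI1, known as Snail and the relative of SNAI2 that is most tightly controlled at the protein level, was highest with the FL constructs. It stood at 7.43 with TET1-FL and 7.29 with mTET1-FL, against 6.56 with TET1-CD and 6.22 with mTET1-CD. The vector array held 6.09, and the shRNA arrays held 5.83 in clone shTET1#1 and 6.15 in the array labelled shTET1#2, against 5.85 in shControl. Both FL arrays lay above the other 6, by 0.74 at the nearest, and wild-type and mutant FL differed by 0.14. In the wild-type pair FL was 1.83-fold above CD, and in the mutant pair 2.10-fold, where 2.1% of clusters were at least 2-fold higher. The fitted FL minus CD difference was 0.97 ± 0.16 (SE, 2 arrays a side), or 1.96-fold, and it did not pass the threshold of an adjusted p under 0.05 (limma adjusted p = 0.135).

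Against the vector, SNAI1 was 2.54-fold higher with TET1-FL and 2.30-fold higher with mTET1-FL, where 3.1% and 2.63% of all kept clusters were at least 2-fold higher, and 1.82% were so in both. With TET1-CD and mTET1-CD it was 1.38-fold and 1.10-fold higher. The mean of the 4 plasmids exceeded the vector by 0.79 ± 0.18 (limma adjusted p = 0.216), and wild-type minus mutant was 0.24 ± 0.16 (limma adjusted p = 1). The wild-type arrays held 7.43 and 6.56, against 7.29 and 6.22 in the mutant arrays, so the sign was the same in both constructs while the groups overlapped. The 2 shRNA clones differed from shControl by -0.0214 in clone shTET1#1 and 0.31 in the array labelled shTET1#2.

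The limma threshold, an adjusted p under 0.05, was passed by 0 of 28946 clusters (0.0%) in each of the 4 fitted comparisons. At an unadjusted p under 0.05 there were 3975 clusters for FL minus CD, 4352 for TET1 plasmids minus vector, 567 for wild-type minus mutant and 2294 for TET1 shRNA minus control shRNA. The fit had 2 residual degrees of freedom, and a miss of the threshold does not show that 2 groups were alike. In the count of arrays that do not overlap, 27.6% of clusters had both FL arrays above both CD arrays and 25.7% had them below, so that SNAI1, VIM and ZEB1, in which both FL arrays were higher, are 3 of 5 kept members against that background.

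The genes most like SNAI1 over the 8 arrays were ALOX12-AS1 (r = 0.978), ANKRD1 (0.973), TSSK4 (0.957), GPR61 (0.953) and FNDC7 (0.952). ANKRD1, which encodes a nuclear ankyrin repeat protein of muscle and stressed cells, stood at 6.84 with TET1-FL and 6.84 with mTET1-FL, against 5.12 with TET1-CD and 5.09 with mTET1-CD, and 5.01 with the vector. In the shRNA arrays it stood at 4.33 and 4.50, against 4.43 in shControl. ANKRD1 and GPR61 lay above the array median on the 2 FL arrays and below it on the other 6, so both were kept through the arrays on which they were high. ALOX12-AS1 stood at 7.35 and 7.19 with the FL plasmids, against 6.59 and 6.56 with the CD plasmids. These r values were nearly the same without shControl, between 0.95 and 0.98, and 49 clusters reached an r of 0.9.

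VIM was lower in both shRNA clones than in either control array. Its cluster 16702767 stood at 8.04 in clone shTET1#1 and 8.01 in the array labelled shTET1#2, against 8.60 in shControl, and the vector array held 8.59. The 2 clones differed from shControl by -0.55 and -0.59 and from the vector by -0.54 and -0.58. VIM signal in the clones was therefore 1.46- to 1.51-fold below both controls, which is less than the 2-fold used to count clusters. VIM was also among the values that led to its listing, so these differences carry no test.

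With the plasmids, VIM stood at 8.50 with TET1-FL and 8.60 with mTET1-FL, against 7.92 with TET1-CD and 8.15 with mTET1-CD. Against the vector value of 8.59 the FL arrays differed by -0.08 and 0.01, and the CD arrays by -0.67 and -0.44. FL minus CD was 0.52 ± 0.12 (SE, limma adjusted p = 0.197), with both FL arrays above both CD arrays. The 4 plasmids minus vector gave -0.29 ± 0.14 (limma adjusted p = 0.394), and wild-type minus mutant gave -0.17 ± 0.12 (limma adjusted p = 1). Ordered by level, TET1-CD, the 2 shRNA clones and mTET1-CD formed a low group with steps of at most 0.10, below the moderated SD of 0.12. A step of 0.35 then led to TET1-FL, the vector, shControl and mTET1-FL, whose own steps were at most 0.08. The whole range of this cluster was 0.68, and 52.3% of kept clusters had a smaller one.

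In the 2 further VIM clusters the same 4 arrays were lowest, with wider ranges, but the extremes were the array labelled shTET1#2 and shControl. In 16712272 mTET1-CD lay 0.07 below TET1-FL, less than the moderated SD of 0.18, so the 2 groups of arrays were not separate there. Cluster 16712272 spanned 1.30 and cluster 16712274 spanned 1.68, against 0.68 for 16702767, and the 3 correlated in pairs over the 8 arrays with r of 0.87, 0.89 and 0.95. In 16712274 the values were 6.66 in clone shTET1#1 and 6.05 in the array labelled shTET1#2, against 7.74 in shControl. The difference from shControl was 2.11-fold and 3.21-fold in that cluster, where 0.905% and 2.16% of clusters were at least 2-fold lower, and 1.98-fold and 2.47-fold in 16712272. FL minus CD was 0.63 ± 0.26 in 16712274 (limma adjusted p = 0.397) and 0.28 ± 0.18 in 16712272 (limma adjusted p = 0.582). In both clones at once, 0.383% of clusters were at least 2-fold lower than in shControl. Cluster 16712274 was also 2.30-fold lower in the array labelled shTET1#2 than in the vector array, where 3.09% of clusters were at least 2-fold lower, and 2.02-fold lower with TET1-CD than with the vector, where 1.2% were.

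**Figure D3:**
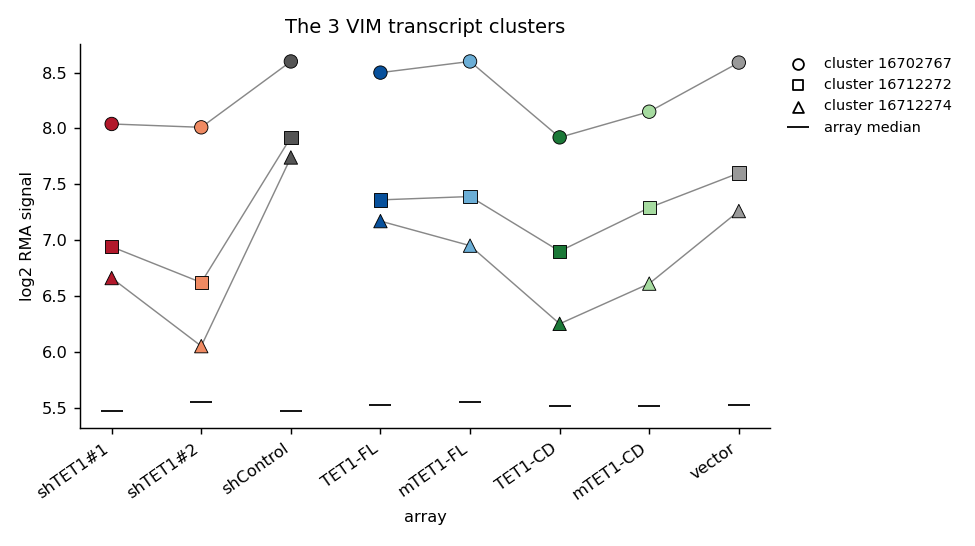
Log2 signal (vertical axis) of the 3 VIM transcript clusters on the 8 arrays (horizontal axis), with the array medians as black dashes; lines join arrays of the shRNA set and of the plasmid set. In every cluster shTET1#1 and the array labelled shTET1#2 lie below shControl, and TET1-CD and mTET1-CD lie below the vector.

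The bases before the listed VIM start are shown because all 3 VIM clusters placed the same 4 arrays lowest. A further reason is that methylation, on which TET1 acts, falls mostly on the CG dinucleotide. The bases shown span chr10:17227991-17228240 on GRCh38.p14, plus strand, from RefSeq, and every CG is in capitals. Methylation was not measured on these arrays, and a link between it and the VIM signal was not tested.
VIM: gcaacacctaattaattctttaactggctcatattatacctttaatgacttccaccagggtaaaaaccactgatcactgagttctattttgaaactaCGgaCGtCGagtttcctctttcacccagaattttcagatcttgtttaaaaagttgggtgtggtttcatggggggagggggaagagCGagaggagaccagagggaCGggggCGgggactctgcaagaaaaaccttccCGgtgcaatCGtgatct

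These 250 bases hold 8 CG dinucleotides, against a median of 11 over 35116 promoter windows of the same length, 43.7% of which held fewer. The E-box letters CAGGTG or its reverse complement CACCTG, which SNAI and ZEB proteins are known to bind, occurred 0 times, and 17.5% of the windows held them. GGGCGG or its reverse complement CCGCCC occurred 1 time, and 42.6% of the windows held it. VIM sequence outside these bases was not examined, so the CG content of the rest of its promoter region is not shown. The RefSeq table matched 5 of the 8 symbols and did not list SNAI1, SNAI2 or TWIST1. The window of ZEB2 held 12 CG, that of TWIST2 26 and those of the 7 listed ZEB1 starts between 7 and 27. The E-box letters occurred in 2 of the ZEB1 windows and in neither the ZEB2 nor the TWIST2 window.

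ZEB1 and ZEB2 varied little. ZEB1 stood at 7.04 in clone shTET1#1 and 6.99 in the array labelled shTET1#2, against 6.83 in shControl. It stood at 7.26 with TET1-FL, 7.29 with mTET1-FL, 7.19 with TET1-CD and 7.14 with mTET1-CD, against 7.20 with the vector. The whole range was 0.47, and 25.3% of kept clusters had a smaller one. Only the step from shControl to the next array, 0.16, was larger than the moderated SD of 0.12. Since that SD is for single arrays, this step is not read as a separation. FL minus CD was 0.11 ± 0.12 (limma adjusted p = 0.771), wild-type minus mutant 0.01 ± 0.12 (limma adjusted p = 1) and plasmids minus vector 0.02 ± 0.14 (limma adjusted p = 0.976).

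ZEB2 stood at 6.91 in clone shTET1#1 and 6.72 in the array labelled shTET1#2, against 6.99 in shControl. It stood at 7.31 with TET1-FL, 6.99 with mTET1-FL, 7.02 with TET1-CD and 7.03 with mTET1-CD, against 6.95 with the vector. TET1-FL was the highest array, 0.27 above the next, and the array labelled shTET1#2 was the lowest, 0.19 below the next. Both steps were larger than the moderated SD of 0.15. Since that SD is for single arrays and a difference of 2 arrays varies more, neither step is read as a separation. The remaining 6 arrays lay between 6.91 and 7.03. The whole range of ZEB2 was 0.59, and 40.7% of kept clusters had a smaller one. FL minus CD was 0.12 ± 0.15 (limma adjusted p = 0.806), wild-type minus mutant 0.15 ± 0.15 (limma adjusted p = 1) and plasmids minus vector 0.14 ± 0.17 (limma adjusted p = 0.773).

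TWIST1 ranged from 4.49 in the vector array to 5.14 with mTET1-CD, with a median of 4.87, below the array median on every array. TWIST2 ranged from 4.56 in shTET1#1 to 5.59 in shControl, the only array on which it passed the median, and 3 arrays held the same value of 5.32. Identical values on at least 2 arrays were seen in 48.1% of the clusters not kept and in 26.0% of those kept. Background may limit signals this low, so no order is read for either TWIST gene.

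**Figure D4:**
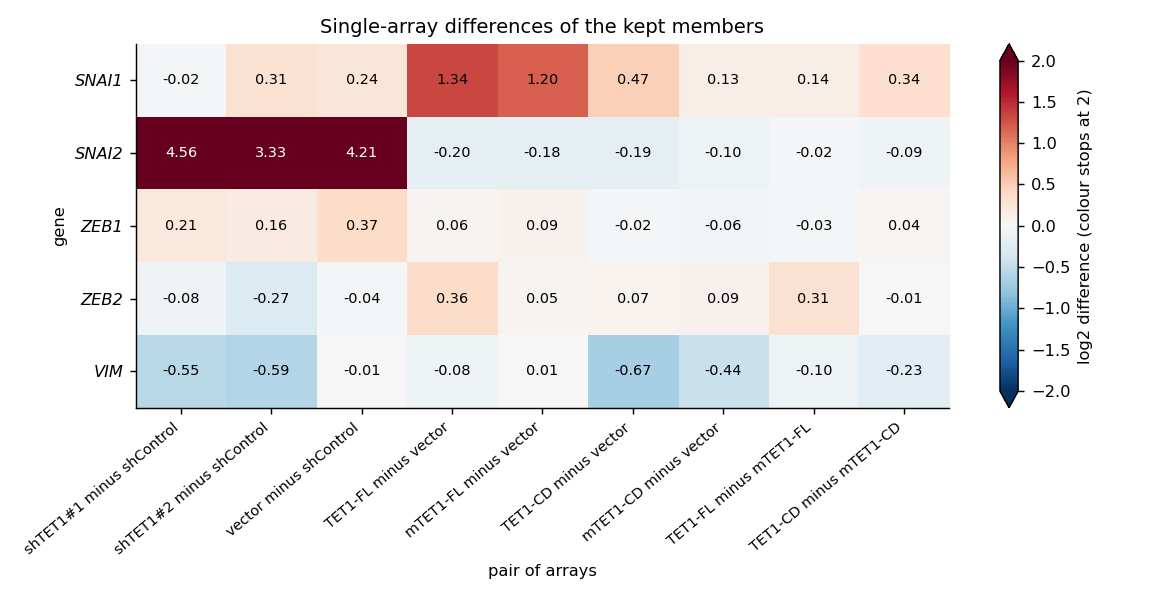
Log2 differences of the 5 kept genes (rows) between single arrays (columns), with the first-named array minus the second; colour stops at 2 while the printed number does not. SNAI2 differs in the 3 pairs that include shControl, SNAI1 with the FL plasmids against the vector, and VIM with the shRNA clones against shControl and the CD plasmids against the vector.

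Epithelial genes that EMT factors are known to repress were set beside these values. Of 43 listed, 35 had a named cluster and 30 were kept, and 0 passed the limma threshold in any comparison. For TET1 shRNA minus control shRNA, 16 were above 0 and 14 below, with a median of 0.01, against -0.01 for all kept clusters. The lowest were CD24, a surface glycoprotein, at -1.01 and the adhesion molecule EPCAM at -0.75, and the highest were keratin KRT19 at 0.51 and the tight junction gene MARVELD3 at 0.32. CD24 lay below the array median in both clones, and KRT19 and MARVELD3 lay below it in shControl, so these 3 differences rest in part on signals in the background range. EPCAM stood at 6.25 in clone shTET1#1 and 6.32 in the array labelled shTET1#2, against 7.03 in shControl, and at 6.61 with the vector. The array gave no named cluster for CDH1, the E-cadherin gene, which is not analysed here.

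For FL minus CD the epithelial median was -0.01, with 14 genes above 0 and 16 below, against 14683 and 14263 of all kept clusters. Highest were the claudin CLDN3 at 0.53 ± 0.14 (limma adjusted p = 0.217) and plakoglobin, JUP, at 0.48 ± 0.22, and lowest were MARVELD2 at -0.35 and CLDN7 at -0.34. With the plasmids against the vector, 20 were above 0 and 10 below, with a median of 0.04, and MARVELD2, a tricellular junction protein, was highest at 0.88 ± 0.13 (limma adjusted p = 0.171). Wild-type minus mutant placed 21 above 0 and 9 below, with a median of 0.05, against 14728 above and 14181 below over all kept clusters. The highest were EPCAM (0.46 ± 0.20) and KRT8 (0.32 ± 0.14). The lowest were OVOL2 (-0.63 ± 0.14), a repressor of ZEB1 in epithelial cells, and CRB3 (-0.22 ± 0.14). The EPCAM difference lay mostly in the CD pair, with 7.60 for TET1-CD and 6.79 for mTET1-CD. In the FL pair EPCAM stood at 7.00 with TET1-FL and 6.89 with mTET1-FL. OVOL2 stood at 5.23 with TET1-FL and 5.62 with TET1-CD, against 5.98 with mTET1-FL and 6.13 with mTET1-CD, values near the array medians.

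Mesenchymal genes other than VIM were fewer, with 47 listed, 17 with a named cluster and 13 kept. In TET1 plasmids minus vector 2 were above 0 and 11 below, with a median of -0.36, and 0 passed the limma threshold. Over all kept clusters 14542 were above 0 and 14404 below, with a median of 0.001. The vector side was 1 array. That array was the highest of all arrays for FN1, VCAN, LOX, THY1, TNC, TPM2 and MMP14, but not for the other genes kept. For MMP14 it held 5.66, against 5.65 with mTET1-FL. TNC lay above the array median on only 2 arrays, and THY1 and MMP14 on 5, so these genes lay near the background range. FN1, which encodes the matrix protein fibronectin, was lowest at -0.84 ± 0.13 (limma adjusted p = 0.176). It stood at 8.40 with TET1-FL, 8.44 with mTET1-FL, 7.69 with TET1-CD and 7.69 with mTET1-CD, against 8.89 with the vector. FN1 was therefore, like VIM, lower on the CD arrays than on the FL arrays (FL minus CD 0.73 ± 0.12, limma adjusted p = 0.132), and it was also lower than the vector on both FL arrays, as were VIM clusters 16712272 and 16712274 but not 16702767 with mTET1-FL. The proteoglycan gene VCAN differed from the vector by -0.61 ± 0.26, and TAGLN (0.18) and CALD1 (0.15), which bind actin, were the 2 genes above 0, and TAGLN lay below the median on the vector array.

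In TET1 shRNA minus control shRNA, 6 mesenchymal genes were above 0 and 7 below, with a median of -0.21. The matrix gene TNC stood highest at 0.67, with means of 5.12 in the clones and 4.45 in shControl that lay below the array medians, and tropomyosin TPM1 (-0.51) and VCAN (-0.47) lowest. FN1 stood at 7.46 in clone shTET1#1 and 7.46 in the array labelled shTET1#2, against 7.24 in shControl, with the vector array at 8.89. For FL minus CD the median was 0.09 (8 above 0 and 5 below), with the collagen cross-linking enzyme LOX and VCAN at 0.45 behind FN1. Wild-type minus mutant gave a median of -0.04, with 3 above 0 and 10 below, and values between -0.12 for TPM2 and 0.13 for TAGLN. Over all kept clusters 14728 were above 0 and 14181 below in that comparison.

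**Figure D5:**
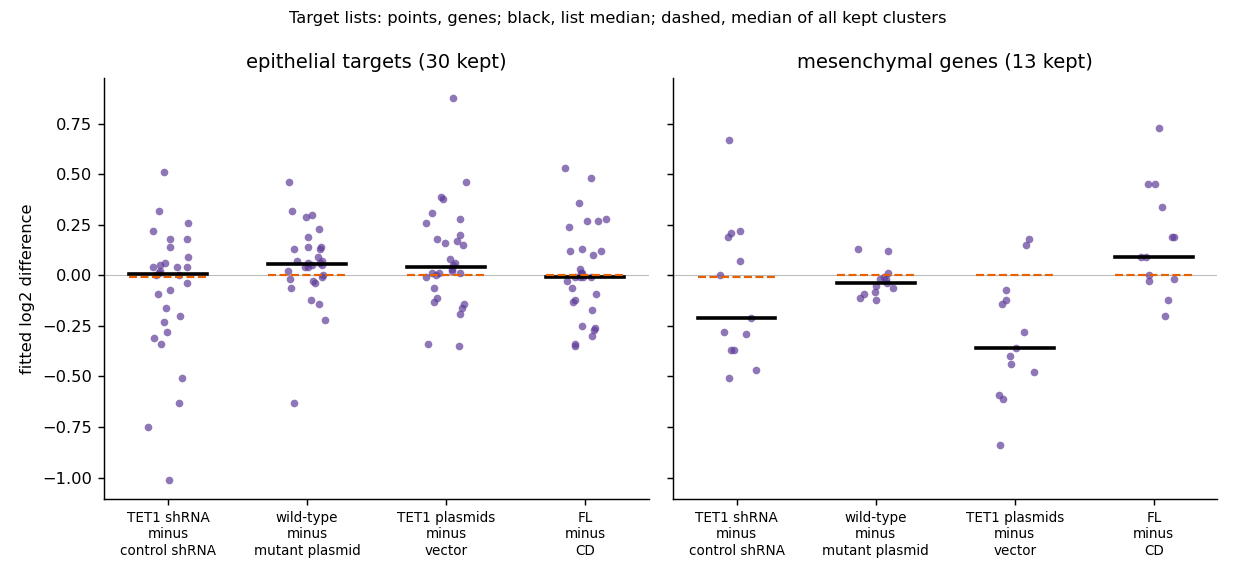
Fitted log2 differences (vertical axis) of the kept epithelial genes (left, 30) and mesenchymal genes (right, 13) in the 4 comparisons (horizontal axis); each point is a gene, black bars are list medians and dashed bars the median of all kept clusters. The mesenchymal median is -0.36 for TET1 plasmids minus vector, and the epithelial medians lie between -0.01 and 0.05.

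Relatives of the EMT factors, of which 13 of 20 were kept, had medians between -0.09 and 0.13 in the 4 comparisons, with 0 past the threshold. SOX4, a HMG-box factor that acts upstream of EMT genes in other cells, stood at 10.19 in clone shTET1#1 and 9.93 in the array labelled shTET1#2, against 9.53 in shControl. With the plasmids it stood at 10.05 (TET1-FL), 10.03 (mTET1-FL), 9.37 (TET1-CD) and 9.62 (mTET1-CD), against 10.15 with the vector. Its FL minus CD difference of 0.54 ± 0.16 (limma adjusted p = 0.259) was the highest of this list. KLF8, which lay below the array median in shControl and shTET1#1, had the highest difference in the clones (0.65 ± 0.30), and the heart factor HAND1 the lowest (-0.49 ± 0.20). HMGA2, a chromatin protein that can induce SNAI1, was lowest with the plasmids against the vector, at -0.44 ± 0.14.

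Partners of the EMT factors kept 18 of 19 listed genes, and 0 passed. LOXL2, a lysyl oxidase that binds SNAI1, stood at 6.68 with TET1-FL, 6.78 with mTET1-FL, 6.48 with TET1-CD and 6.60 with mTET1-CD, against 7.65 with the vector. Its plasmid minus vector difference was -1.02 ± 0.13 (limma adjusted p = 0.162), and its shRNA arrays lay between 6.68 and 6.84, so the vector array stood apart. EZH2, the Polycomb methyltransferase, was highest in the same comparison at 0.52 ± 0.17. The E proteins TCF3, TCF4 and TCF12, which pair with TWIST proteins, differed between the clones and shControl by -0.13, -0.21 and 0.15. List medians lay between -0.10 and -0.02.

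Genes that control EMT factor turnover kept 10 of 19, with medians from -0.10 to 0.02 and 0 past the threshold. The kinase gene GSK3B and BTRC, the ligase subunit that marks Snail for decay, had the highest differences between the clones and shControl, 0.10 ± 0.15 and 0.00 ± 0.17. Against the vector the kinase PRKD1 was lowest, at -0.52 ± 0.19. The inhibitory helix-loop-helix list kept only HEY1 (0.40 ± 0.15) and HEY2 (-0.51 ± 0.16) in the comparison of the clones with shControl.

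TGF-beta and BMP signals, which induce SNAI and ZEB genes in many cells, kept 20 of 37 listed genes with medians from -0.07 to 0.06 and 0 past the threshold. SMAD7, an inhibitor induced by the pathway itself, stood at 6.81 in clone shTET1#1 and 6.01 in the array labelled shTET1#2, against 7.22 in shControl, and the vector array held 6.33. The ligand BMP2 was highest in that comparison, at 0.62 ± 0.17 (limma adjusted p = 0.548), with a shControl value of 5.06 below the array median. With the plasmids against the vector, the repressor SKIL was highest at 0.77 ± 0.14 (limma adjusted p = 0.185) and LTBP1, which stores latent TGF-beta in the matrix, lowest at -0.64 ± 0.23. BMP2 was lowest for FL minus CD, at -0.41 ± 0.14.

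Neural crest factors kept 14 of 21, with medians from -0.07 to 0.09 and 0 past the threshold. SOX10, which together with SNAI2 marks migrating crest, stood at 6.57 in clone shTET1#1 and 6.97 in the array labelled shTET1#2, against 6.13 in shControl, the lowest of the 8 arrays. FOXD3 had the highest FL minus CD difference of this list at 0.62 ± 0.15 (limma adjusted p = 0.214), with 6.27 and 6.04 on the FL arrays, against 5.49 and 5.58 on the CD arrays, values near the array medians. Intermediate filament genes other than VIM kept 13 of 19, with medians from -0.13 to 0.05. Lamin A, LMNA, was the highest of them with plasmids against the vector (0.68 ± 0.16), and desmin, DES, for FL minus CD (0.43 ± 0.19). Of 39 microRNA genes known to act on EMT factors, 34 had a named cluster and 4 were kept, and of those MIRLET7D was lowest in the clones against shControl (-0.67 ± 0.24). The cadherin and catenin list had 1 named gene of 25, JUP.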

How the data were processed

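RNA was measured on 8 Affymetrix arrays. The deposited values are log2 signals, and per the submitters' processing notes RMA and Affymetrix Expression Console 1.3.1 were used, without roles. The genome build is not given in the sources used here. In all, the deposited table held 53981 rows, of which 364 had no value, leaving 53617 transcript clusters. Platform annotation gave 16098 of them 1 symbol. Clusters above the array median on at least 2 arrays were kept (28946). A single linear model in limma 3.58.1 (R 4.3.3) covered all 8 arrays, with a term for each shRNA type, for the vector, for mutant and wild-type TET1 and for FL against CD. The fit left 2 residual degrees of freedom and a prior of 2.89, with a prior SD of 0.154. The moderated SD of a cluster weighs its own residual spread with that prior. Adjusted p-values are Benjamini-Hochberg values over all kept clusters called under 0.05. Differences between single arrays were counted at 2-fold or more, with no test.

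The members, gene lists and tests were chosen with earlier results of these data known. Genes named are all members, TET1, the 2 highest and 2 lowest kept genes of each list per comparison, and the 5 genes of highest r for each member whose range was at least 1. Not all genes that this rule takes are printed. The printed ones, and TCF3, which falls outside the rule in the fitted comparisons, were chosen after values were seen. Alternatives were other filters and scalings, arrays left out, the vector as control, and 1 cluster per symbol. The number of arrays limits the precision.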

Additional observations from a re-analysis of the deposited data

Results flagged for a closer look

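Some kept genes had opposite signs in 2 parallel comparisons, and these differences were not tested. SNAI1 differed from shControl by -0.0214 in shTET1#1 and by 0.31 in the array labelled shTET1#2. ZEB1 differed between wild-type and mutant by -0.0338 in FL and 0.044 in CD, and from the vector by 0.0581 and 0.0919 with TET1-FL and mTET1-FL but by -0.0157 and -0.0597 with TET1-CD and mTET1-CD. ZEB2 differed between wild-type and mutant by 0.31 in FL and -0.0141 in CD. For ZEB1 all of these values were smaller than its moderated SD of 0.12.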

How the results depend on the processing

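In the 3 plasmid comparisons the differences of the 5 kept genes were recomputed 151 times under other settings. In 146 the sign and the side of the threshold were the same, in 5 the sign changed, and in 0 the threshold was crossed, with a lowest limma adjusted p of 0.0879. Settings that changed the filter, the clusters tested or the prior, or dropped the shRNA arrays, left each difference as it was. Their signs could not change, so these counts overstate how far the signs were checked. In plasmids minus vector, leaving out TET1-CD or mTET1-FL gave the same difference, as did leaving out mTET1-CD or TET1-FL. With the vector as control in place of shControl, the TET1 shRNA differences were -0.27 for SNAI2, -0.10 for SNAI1 and -0.19 for ZEB1. Leaving out arrays gave -0.0214 to 0.31 for SNAI1 in TET1 shRNA minus control shRNA, -0.0338 to 0.044 for ZEB1 and -0.0141 to 0.31 for ZEB2 in wild-type minus mutant, -0.000787 to 0.0381 for ZEB1 in plasmids minus vector, and -0.0396 to 0.29 for ZEB2 in FL minus CD. With fewer clusters tested, 1 per symbol, 5 genes passed for the shRNA comparison and none was a member, and with array medians set equal 1 cluster passed for plasmids minus vector, against 0 in each case otherwise, and the cause was not tested. The VIM range was 1.30 and 1.68 in its other clusters, whose fitted differences were added as an alternative after seeing the data, and without shControl the lowest r of the genes like SNAI2 was 0.50. Of 78 recomputed shares of clusters 2-fold apart, 73 were within 1.5 times. Without the filter, the shares at least 2-fold lower than the vector were 0.987% with TET1-FL and 1.01% with mTET1-FL, and wild-type was at least 2-fold higher than mutant in 0.8% with FL and 0.522% with CD and lower in 0.399% with CD. Wild-type and mutant plasmids were matched by construct through the FL against CD term, and the labels give no other pairing of arrays. Signals near the array median, as for TWIST1, TWIST2 and SNAI2 in shControl, limit the folds that can be read.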
